A study of Mus musculus with 9 samples.

Results

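Necroptosis, death receptor and pyroptosis genes were examined in mouse liver as 9 genes taken by symbol from a deposited table of 27945 genes. They were Mlkl, Ripk1, Ripk3, Casp8, Fas, Tnfrsf1a, Tnfrsf10b, Gsdmd and Bid, and each symbol matched 1 protein-coding gene. All 9 had enough counts to be tested, so none was lost to the filter on low counts. The 9 libraries came from liver after 16 days of sanitary saline (3 libraries), of gefitinib (3 libraries) or of glycyrrhizic acid together with gefitinib (3 libraries, called the combined group). Gefitinib is a drug that blocks EGFR kinase activity, and glycyrrhizic acid is a saponin of licorice. The series title names attenuation of gefitinib liver toxicity by glycyrrhizic acid as its subject. Strain, sex, age and dose were not found in the labels, and no group received glycyrrhizic acid alone, so its effect without gefitinib cannot be read from these libraries.

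Death receptors such as Fas, TNF receptor 1 (Tnfrsf1a) and the TRAIL receptor (Tnfrsf10b) carry a death domain inside the cell, through which ligand binding assembles a complex with caspase-8 (Casp8). Active caspase-8 cleaves the BH3 protein Bid, which in hepatocytes carries the signal to mitochondria, and it also cleaves the kinases Ripk1 and Ripk3. Where caspase-8 is held inactive, Ripk1 and Ripk3 join through their RHIM motifs, Ripk3 phosphorylates the pseudokinase Mlkl, and Mlkl breaches the plasma membrane in necroptosis. Gasdermin D (Gsdmd) forms membrane pores in pyroptosis after cleavage by inflammatory caspases. These proteins are controlled largely by cleavage, phosphorylation and assembly, which RNA levels do not report.

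Start regions are printed for some members that rose and for Ripk1, which did not. RefSeq promoter sequences (GRCm38.p6, 250 bases before to 50 after an annotated start site) were matched for 7 of the 9 genes, with 8 sequences in all. Gsdmd and Tnfrsf10b, both called in combined against saline, had none. Each was searched on both strands for the letters of 5 motifs, ISRE, GAS (TTCNNNGAA), AP-1 (TGANTCA), NF-kB and the TATA box (TATAAA). Those of Mlkl (chr8:111338156-111338455, minus strand), Ripk3 (chr14:55788808-55789107, minus strand), Tnfrsf1a (chr6:125349473-125349772, plus strand) and the second annotated start of Ripk1 (chr13:34002624-34002923, plus strand) are printed 5′ to 3′ on the gene's strand, with matches in capitals.
Mlkl: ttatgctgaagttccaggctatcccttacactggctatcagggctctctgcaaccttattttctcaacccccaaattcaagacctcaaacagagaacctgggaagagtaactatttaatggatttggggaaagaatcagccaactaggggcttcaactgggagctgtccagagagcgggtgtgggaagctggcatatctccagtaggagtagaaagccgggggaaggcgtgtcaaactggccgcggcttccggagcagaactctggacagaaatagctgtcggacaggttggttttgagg
Ripk3: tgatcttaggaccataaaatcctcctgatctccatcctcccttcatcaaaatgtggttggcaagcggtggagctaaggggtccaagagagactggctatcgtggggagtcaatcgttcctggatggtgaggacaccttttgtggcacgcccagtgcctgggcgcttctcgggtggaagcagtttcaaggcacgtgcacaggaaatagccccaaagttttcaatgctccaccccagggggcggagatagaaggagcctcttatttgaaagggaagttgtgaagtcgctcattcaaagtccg
Tnfrsf1a: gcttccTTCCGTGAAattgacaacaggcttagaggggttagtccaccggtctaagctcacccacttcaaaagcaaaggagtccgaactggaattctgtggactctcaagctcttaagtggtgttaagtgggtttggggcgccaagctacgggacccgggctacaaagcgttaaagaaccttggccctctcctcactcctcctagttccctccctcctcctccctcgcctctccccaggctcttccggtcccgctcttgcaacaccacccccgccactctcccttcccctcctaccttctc
Ripk1: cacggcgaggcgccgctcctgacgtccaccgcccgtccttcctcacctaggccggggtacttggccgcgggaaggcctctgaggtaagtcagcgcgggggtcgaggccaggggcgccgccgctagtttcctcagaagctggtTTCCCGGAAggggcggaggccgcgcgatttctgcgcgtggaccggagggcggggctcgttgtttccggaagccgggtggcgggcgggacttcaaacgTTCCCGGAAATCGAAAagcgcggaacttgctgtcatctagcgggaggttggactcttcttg
Mlkl and Ripk3 held none of the 5 motifs in these windows. Tnfrsf1a held 1 GAS match, from -244 to -236 relative to the start site. The Ripk1 start held 2 GAS matches, from -108 to -100 and from -11 to -3, and an ISRE match that overlaps the second of them and spans -5 to 5. Fas, which is not printed, held an AP-1 match from -211 to -205 and a GAS match from -93 to -85, while the first Ripk1 start, Casp8 and Bid held none. The first Ripk1 start coincides with the gene start listed by the authors, and the printed one lies 511 bases from it. The start sites used for Tnfrsf1a and Casp8 lie 361 and 7128 bases from the listed gene starts. Among 32851 RefSeq promoter windows of the same length, 8.3% held a GAS match, 3.44% an ISRE match, 7.81% an AP-1 match, 13.6% a TATA box match and 0.411% an NF-kB match. Matches are letters only and show no binding.

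Total counts were between 56440871 and 60665156 per library. Levels below are CPM, library-scaled counts with TMM factors, unless FPKM (scaled per transcript length and library) is named. For folds, 95% intervals and p-values the quasi-likelihood test of edgeR was used over 18113 genes with Benjamini-Hochberg adjustment, and a gene was called changed at an adjusted p under 0.05. TMM factors were 0.905 to 0.978 in saline, 0.948 to 0.998 in gefitinib and 1.05 to 1.14 in combined libraries. Scaling by library size alone therefore moves the median log2 change of all genes by 0.21 in combined against saline and by 0.17 in combined against gefitinib. Nothing in the labels says that the libraries of a group are separate animals, so p-values describe the spread between these libraries, which may be technical. Skeletal muscle transcripts set some libraries apart. All 10 muscle markers were in the table, and they summed to 210 CPM in gefitinib 1 and 138 to 180 CPM in the combined libraries, against 0.966 and 0.997 CPM in gefitinib 2 and 3 and 0.697 to 1.55 CPM with saline, where Pvalb, Ckm, Myh2 and Myh1 were at 0.

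Mlkl was the only member called in all 3 comparisons, lowest with saline and highest in the combined group. Of its calls, only that in combined against saline held under every alternative. Ripk3, Tnfrsf1a, Tnfrsf10b and Gsdmd were higher in the combined group than with saline. Ripk1, Fas, Casp8 and Bid passed in no comparison. In gefitinib against saline, 1 of 9 members rose and 0 fell, while 0.547% of all tested genes rose and 1.14% changed in either direction. In combined against gefitinib, 1 of 9 rose and 0 fell, with 4.96% of all tested genes rising and 9.08% changing. In combined against saline, 5 of 9 rose and 0 fell, with 9.37% of all tested genes rising and 17.7% changing. At an unadjusted p under 0.05 the members numbered 6, 2 and 6 in the 3 comparisons, against 14.1%, 24.3% and 31.8% of all tested genes. Values of gefitinib and saline libraries did not overlap, with gefitinib higher, for 6 of 9 members, against 9.71% of tested genes. The same held for 2 of 9 members in combined against gefitinib (16.2% of tested genes) and for 6 of 9 in combined against saline (19.3%). No member lay wholly below the other group in any comparison, where 10.2%, 15% and 18% of tested genes did. The median log2 change of the 9 members was 0.53, 0.080 and 0.56 in the 3 comparisons in that order, and that of all tested genes lay between -0.01 and 0.01. The comparisons share libraries, so their counts are not independent of each other. The members were chosen with earlier results of these data known, so these counts are a description and not a test of the set.

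**Figure D1:**
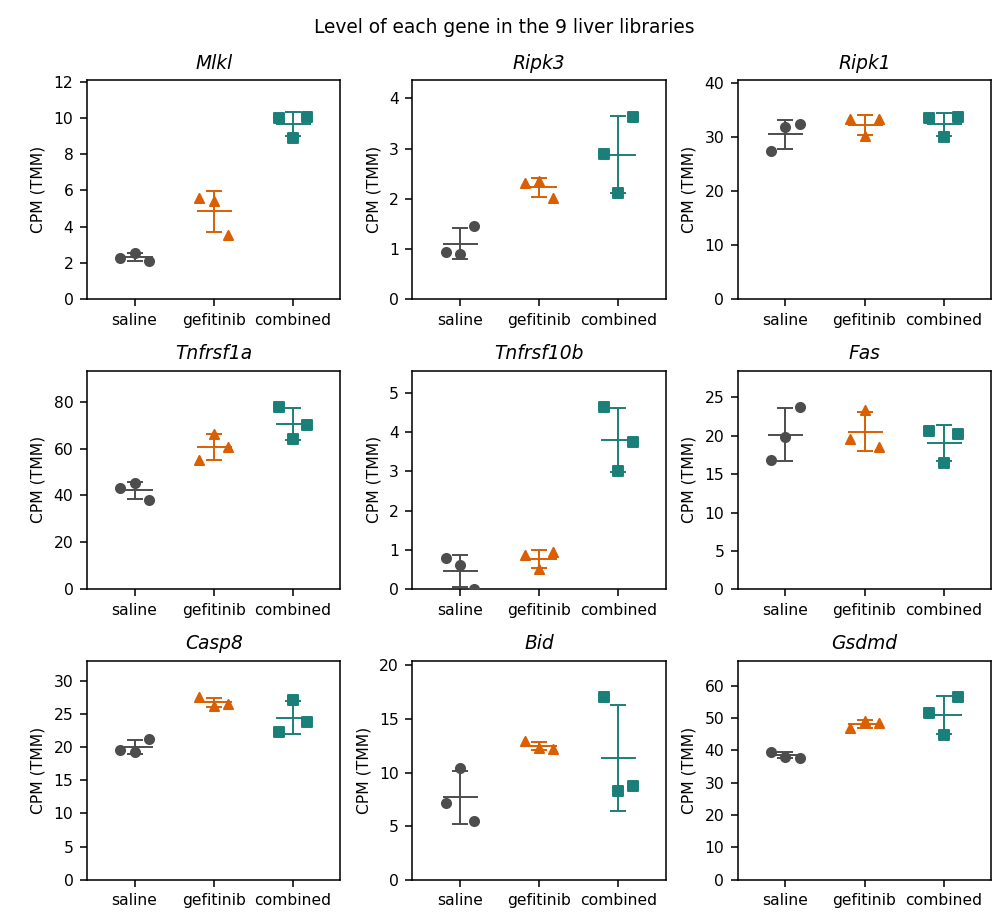
Level of each of the 9 genes in CPM (TMM-scaled, y axes from 0) in the saline, gefitinib and combined libraries; points are libraries, the horizontal mark is the mean and the bar the SD (n = 3 per group). Mlkl steps from 2.31 to 4.85 to 9.65 CPM between groups with no overlap, while Ripk1 and Fas libraries of the 3 groups overlap.

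Mlkl (ENSMUSG00000012519, chromosome 8, 111311797 to 111338177, GRCm38, minus strand) encodes the pseudokinase that carries out necroptosis. It was at 2.29, 2.54 and 2.09 CPM in saline 1 to 3, at 5.60, 5.39 and 3.55 CPM in gefitinib 1 to 3 and at 9.99, 8.89 and 10.1 CPM in combined 1 to 3. No library of one group reached the range of another. Group means were 2.31 ± 0.225, 4.85 ± 1.13 and 9.65 ± 0.655 CPM (SD, n = 3 per group). Against saline, Mlkl rose 2.10-fold with gefitinib (log2 1.07, 95% interval 0.60 to 1.54, edgeR adjusted p = 0.0481), and this value lies close to the threshold. The call was lost under 5 of 9 other settings and without 8 of the 9 libraries taken 1 at a time. It held without gefitinib 3 (edgeR adjusted p = 0.0444), the lowest library of its group. Without gefitinib 1, the 1 gefitinib library with muscle transcripts, the log2 change was 0.96 (edgeR adjusted p = 0.129). Mlkl rose a further 1.99-fold in combined against gefitinib (log2 0.99, interval 0.53 to 1.45, edgeR adjusted p = 0.0177), a call that held under all 9 other settings and was lost without combined 1 or combined 3 (highest edgeR adjusted p = 0.0608). Against saline the rise in the combined group was 4.18-fold (log2 2.06, interval 1.59 to 2.54, edgeR adjusted p = 0.000323), and it held under each of the 9 other settings and without each library. These are bulk livers, in which more cells of a type and more RNA per cell cannot be told apart.

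Ripk3 (ENSMUSG00000022221, chromosome 14, 55784995 to 55788865, minus strand), the kinase that phosphorylates Mlkl, was one of the least abundant members. It was covered by 47 to 78 counts with saline, 115 to 141 with gefitinib and 138 to 231 in the combined libraries. In CPM these were 0.947, 0.904 and 1.46 in saline 1 to 3, 2.32, 2.35 and 2.01 in gefitinib 1 to 3 and 2.89, 2.11 and 3.64 in combined 1 to 3. All saline libraries were below all others, and combined 2 lay within the gefitinib range. Ripk3 rose 2.61-fold in combined against saline (log2 1.38, interval 0.68 to 2.08, edgeR adjusted p = 0.0147), which was lost without saline 2 or combined 3 (highest edgeR adjusted p = 0.0536). With gefitinib it was 2.02 times the saline level but did not pass (log2 1.01, interval 0.32 to 1.71, edgeR adjusted p = 0.179), and combined against gefitinib gave a log2 change of 0.37 (interval -0.31 to 1.05, edgeR adjusted p = 0.519).

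Ripk1 (ENSMUSG00000021408, chromosome 13, 34002363 to 34033677, plus strand), the kinase that acts upstream of Ripk3 and also scaffolds survival signalling, stood at nearly the same level in all groups. It was at 27.3, 31.7 and 32.3 CPM with saline, 33.3, 30.1 and 33.3 CPM in gefitinib libraries, and at 33.4, 29.9 and 33.7 CPM in combined ones. The 3 ranges overlap, and the largest of its log2 changes was 0.087 in combined against saline (interval -0.15 to 0.32, edgeR adjusted p = 0.626). This depends on the scaling, since with library size alone that change was 0.30 (edgeR adjusted p = 0.0706), and in the authors' FPKM the combined libraries, at 3.43 to 4.02, lay above the saline libraries, at 2.80 to 3.21. Its exons share 241 bases, 2.89% of its exonic length, with those of Serpinb6a on the other strand, and whether counting used strand is not given in the sources used here.

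**Figure D2:**
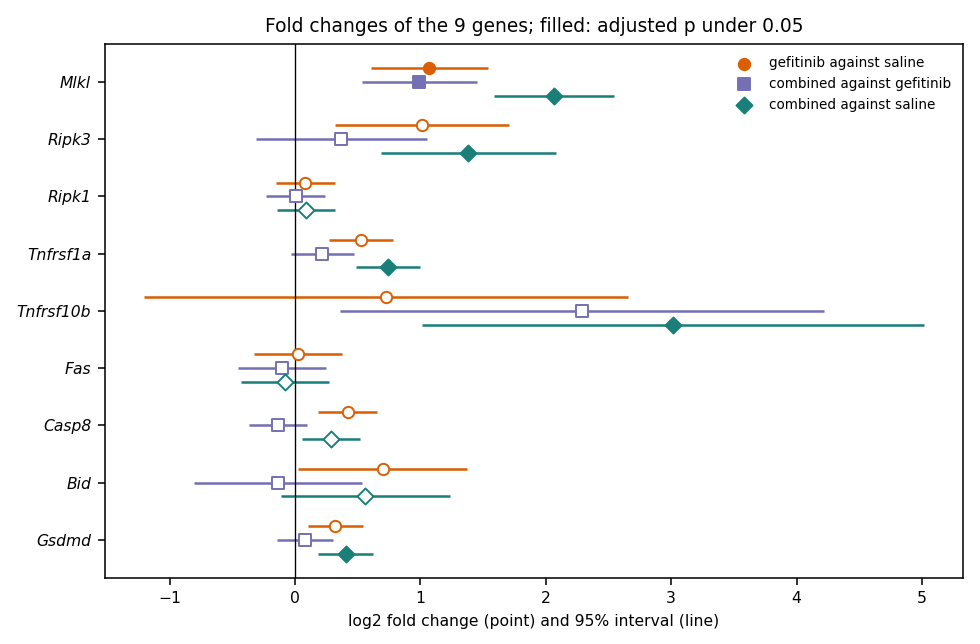
Log2 fold changes of the 9 genes in 3 comparisons from edgeR's quasi-likelihood fit; lines are 95% intervals and filled symbols have an adjusted p under 0.05. Mlkl is filled in all 3 comparisons, and the widest intervals are those of Tnfrsf10b, from 1.01 to 5.02 in combined against saline.

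Among the receptors, Tnfrsf1a (ENSMUSG00000030341, chromosome 6, 125349362 to 125361874, plus strand), the main death domain receptor for TNF, was highest in the combined group. It was at 43.2, 45.1 and 38.0 CPM in saline 1 to 3, 55.0, 66.3 and 60.7 CPM in gefitinib 1 to 3 and 77.7, 64.0 and 70.1 CPM in combined 1 to 3. Every gefitinib and combined library exceeded every saline library, whereas gefitinib 2 lay within the combined range. Tnfrsf1a rose 1.68-fold in combined against saline (log2 0.74, interval 0.49 to 1.00, edgeR adjusted p = 0.00226), under each of the 9 other settings and without each library. With gefitinib the level was 1.44 times that of saline and did not pass (log2 0.53, interval 0.27 to 0.78, edgeR adjusted p = 0.0677), although DESeq2 called it (adjusted p = 0.00268). Combined against gefitinib gave a log2 change of 0.22 (interval -0.03 to 0.47, edgeR adjusted p = 0.277).

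Tnfrsf10b (ENSMUSG00000022074, chromosome 14, 69767472 to 69784411, plus strand), the mouse TRAIL receptor with a death domain, was the least abundant member per length in each group. Its counts were 44, 32 and 0 in saline 1 to 3, 48, 31 and 54 in gefitinib 1 to 3 and 316, 197 and 238 in combined 1 to 3. A count of 0 allows up to 3 counts, which is 0.056 CPM in saline 3 and covers counting error only. In CPM the combined libraries were at 4.64, 3.01 and 3.75, against 0.516 to 0.945 with gefitinib and 0 to 0.786 with saline, so the combined libraries stood clear of all others. The fitted rise in combined against saline was 8.09-fold (log2 3.02, interval 1.01 to 5.02, edgeR adjusted p = 0.0444). The zero in saline 3 enters this fold, which was 2.43 on the log2 scale without that library (edgeR adjusted p = 0.00647). The call was lost without any 1 of the other 8 libraries (highest edgeR adjusted p = 0.116) and under 3 of 8 other settings. In combined against gefitinib the log2 change was 2.29 (interval 0.36 to 4.22) and did not pass (edgeR adjusted p = 0.137), but it passed under 4 of 8 other settings, among them DESeq2 (adjusted p = 0.0256), and without saline 3 (edgeR adjusted p = 0.00647).

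Fas (ENSMUSG00000024778, chromosome 19, 34290666 to 34327772, plus strand), the receptor for Fas ligand and a well-known trigger of hepatocyte apoptosis in mice, was at 16.9, 19.8 and 23.7 CPM with saline, 19.6, 23.4 and 18.5 CPM in gefitinib libraries, and at 20.6, 16.4 and 20.2 CPM in combined ones. The groups overlap throughout. Its log2 changes were 0.03 with gefitinib, -0.10 in combined against gefitinib and -0.08 in combined against saline, with intervals of -0.32 to 0.38, -0.45 to 0.25 and -0.43 to 0.27 (edgeR adjusted p = 0.968, 0.751 and 0.792). The sign of the last 2 is positive with library size alone and with log2 FPKM. Within a library, the ratio of Tnfrsf1a to Fas in FPKM was 1.28 to 2.04 with saline, 2.23 to 2.61 with gefitinib and 2.76 to 3.11 in the combined group.

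Casp8 (ENSMUSG00000026029, chromosome 1, 58795374 to 58847503, plus strand), the initiator caspase that cleaves Ripk1, Ripk3 and Bid, had its highest mean with gefitinib. It was at 19.6, 19.3 and 21.2 CPM with saline, 27.6, 26.3 and 26.6 CPM in gefitinib libraries, and at 22.3, 27.2 and 23.8 CPM in combined ones. Saline libraries were below all others, and combined 2 lay within the gefitinib range. The log2 change was 0.42 with gefitinib (interval 0.19 to 0.66, edgeR adjusted p = 0.103), -0.13 in combined against gefitinib (-0.37 to 0.10, adjusted p = 0.495) and 0.29 in combined against saline (0.05 to 0.52, adjusted p = 0.0894), and none passed. DESeq2 called the first (adjusted p = 0.0196), and the last was called with library size alone at a log2 change of 0.49 (edgeR adjusted p = 0.0119) and by limma on log2(FPKM + 1) and log2(FPKM + 0.1) at 0.44 and 0.50 (adjusted p = 0.00828 and 0.00795).

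Bid (ENSMUSG00000004446, chromosome 6, 120891930 to 120916853, minus strand), the caspase-8 substrate, was the most variable member among combined libraries. It was at 7.13, 10.4 and 5.49 CPM with saline, 12.9, 12.3 and 12.2 CPM in gefitinib libraries, and at 17.0, 8.25 and 8.70 CPM in combined 1 to 3. Gefitinib libraries lay above all saline libraries, whereas the combined libraries spanned from the saline range to above the gefitinib range. The log2 change was 0.70 with gefitinib (interval 0.02 to 1.38, edgeR adjusted p = 0.339) and 0.56 in combined against saline (-0.11 to 1.24, adjusted p = 0.237). The latter was 0.14 without combined 1 (edgeR adjusted p = 0.773). Bid exons share 628 bases, 17.7% of its exonic length, with those of Bcl2l13 on the other strand, which was at a mean of 30.7 CPM over all libraries, so reads of the 2 genes cannot be told apart there if counting ignored strand.

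Gsdmd (ENSMUSG00000022575, chromosome 15, 75862327 to 75867408, plus strand), the pore protein of pyroptosis, was among the best covered members, with 1980 to 3586 counts per library. It was at 39.6, 38.1 and 37.8 CPM with saline, 46.9, 49.1 and 48.4 CPM in gefitinib libraries, and at 51.4, 44.8 and 56.4 CPM in combined ones. All saline libraries were lower than the rest, and combined 2 was below the gefitinib libraries. Gsdmd rose 1.32-fold in combined against saline (log2 0.40, interval 0.18 to 0.62, edgeR adjusted p = 0.0204), a call held under all 9 other settings and lost without saline 2, saline 3, combined 1 or combined 3 (highest edgeR adjusted p = 0.073). With gefitinib the level was 1.25 times that of saline and did not pass (edgeR adjusted p = 0.175).

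**Figure D3:**
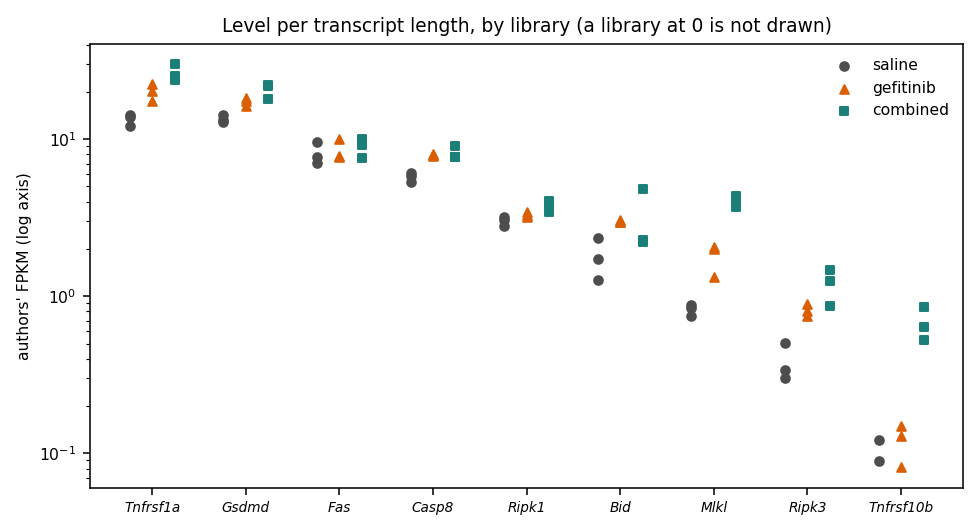
The authors' FPKM (log axis) of the 9 genes in each library, ordered by their mean level with saline. Saline 3, with Tnfrsf10b listed at 0, is not drawn for that gene. Tnfrsf1a and Gsdmd are at the top in every group, Tnfrsf10b is at the bottom, and Mlkl moves from 0.821 FPKM with saline to 4.05 FPKM in the combined group.

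Per transcript length, the members differed widely in level. In mean FPKM with saline, Tnfrsf1a (13.5 ± 1.14, SD, n = 3) and Gsdmd (13.4 ± 0.751) were close to each other, followed by Fas (8.08 ± 1.31), Casp8 (5.74 ± 0.377), Ripk1 (3.02 ± 0.203), Bid (1.78 ± 0.534), Mlkl (0.821 ± 0.0657), Ripk3 (0.380 ± 0.106) and Tnfrsf10b (0.0703 ± 0.0629). The order was the same with gefitinib. In the combined group Mlkl (4.05 ± 0.325 FPKM) had a mean above those of Ripk1 (3.75 ± 0.297) and Bid (3.11 ± 1.47). Its range of 3.70 to 4.35 FPKM overlapped that of Ripk1, 3.43 to 4.02, and lay within that of Bid, 2.22 to 4.81, with Bid above Mlkl in combined 1.

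Ratios of 2 members within a library do not depend on how libraries are scaled, and are given as a description chosen after the values were seen. Mlkl relative to Casp8 was 0.145, 0.164 and 0.123 in FPKM in saline 1 to 3, 0.254, 0.257 and 0.167 in gefitinib 1 to 3 and 0.561, 0.410 and 0.529 in combined 1 to 3. The combined libraries were above all others, and gefitinib 3 was barely above the highest saline library. Ripk3 relative to Ripk1 was 0.0995 to 0.156 with saline, 0.218 to 0.280 with gefitinib and 0.252 to 0.387 in the combined group. Here the saline libraries stood below the rest, while gefitinib and combined libraries overlapped.

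**Figure D4:**
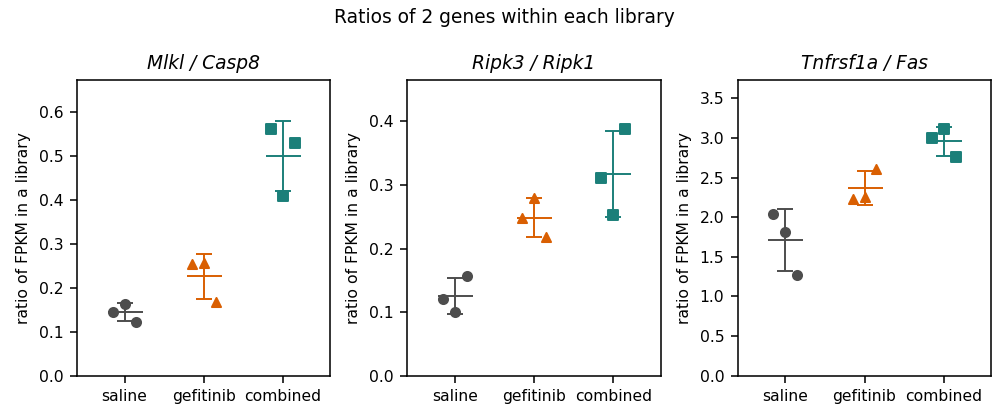
FPKM of Mlkl over Casp8, Ripk3 over Ripk1 and Tnfrsf1a over Fas in each library (points), with mean and SD (n = 3 per group). The Mlkl to Casp8 ratio has a mean of 0.144 with saline, 0.226 with gefitinib and 0.500 in the combined group.

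Summed markers of monocyte-derived macrophages and of stellate cells were highest in the combined group. Those of sinusoidal endothelium, hepatocytes and erythroid cells were lowest there. Summed skeletal muscle markers, given above, were high in all combined libraries and in gefitinib 1. Mlkl, Ripk3, Tnfrsf1a, Tnfrsf10b and Gsdmd were also highest in the combined group by their means. Only Mlkl among them was called in combined against gefitinib. The T and NK cell and B cell lists held no called gene in any comparison. The part of other cell types in the results was not tested. The 8 monocyte-derived macrophage markers (8 of 8 in the table) summed to 32.6 to 43.5 CPM with saline, 54.4 to 101 CPM with gefitinib and 507 to 748 CPM in the combined libraries. In the combined group Gpnmb and Lyz2 had the largest means of this list, 254 and 261 CPM. Ly6c2 and Cx3cr1 were called in no comparison. The 8 neutrophil markers summed to 3.68 to 6.23, 13.1 to 28.2 and 11.5 to 138 CPM in saline, gefitinib and combined libraries, with Ly6g at 0 in all saline libraries. Of 7 tested, 5 were called higher in combined against saline, and 0 were called in either other comparison. Kupffer cell markers (6 of 6) summed to 138 to 237, 217 to 261 and 191 to 381 CPM. Marco and Cd5l were called higher in combined against saline, and 4 did not pass. T and NK cell markers (10 of 10) summed to 4.92 to 10.6, 7.15 to 9.89 and 5.10 to 9.13 CPM, and B cell markers (6 of 6) to 7.77 to 25.95, 26.8 to 35.5 and 14.8 to 30.6 CPM. Sinusoidal endothelial markers (6 of 6) summed to 253 to 293 CPM with saline, 97.2 to 113 CPM with gefitinib and 48.7 to 68.6 CPM in the combined group. All 6 were called lower in gefitinib against saline and in combined against saline. In combined against gefitinib, 4 were called lower and 2 did not pass. Hepatocyte markers (9 of 9) were abundant in each library, at 88953 to 101103, 89096 to 92636 and 69635 to 85197 CPM in saline, gefitinib and combined libraries. Alb alone had means of 58495, 59203 and 49871 CPM in these groups. In combined against saline, Tat was called higher, Serpina1a and Serpina1c were called lower, and 6 did not pass. Stellate cell markers (6 of 6) summed to 73.1 to 112, 60.1 to 78.0 and 231 to 290 CPM in saline, gefitinib and combined libraries. These markers did not move together. In combined against saline, the collagen genes Col1a1 (means of 5.60 and 55.6 CPM with saline and combined) and Col3a1 (31.9 and 147 CPM) were called higher. Lrat (10.6 and 4.20 CPM) was called lower, and 3 did not pass. Cholangiocyte markers (6 of 6) summed to 26.7 to 43.6, 22.3 to 46.7 and 34.6 to 59.9 CPM, and erythroid markers (5 of 5) to 652 to 948, 859 to 1979 and 346 to 584 CPM.

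The profiles most like those of the called members were sought among 10020 other genes, by Pearson's r of log2 CPM over the 9 libraries, which share group differences and depth. For Mlkl these were Mmp12, a macrophage elastase (r = 0.987), Psme2, a subunit of the proteasome activator PA28 (0.979), and Myo1f, a myosin of blood cells (0.978). For Ripk3 they were Ctps2, a CTP synthase (0.967), Zbp1, a nucleic acid sensor that itself binds Ripk3 (0.963), and Atpif1, an inhibitor of the mitochondrial ATPase (0.958). For Gsdmd the first was Marco, a macrophage scavenger receptor (0.978), followed by Rnf145 (0.974) and Pir (0.972). Tnfrsf1a was most like Plpp2, a lipid phosphatase (0.980), the pseudogene Gstm2-ps1 (0.974) and Lgals3bp (0.971), and Tnfrsf10b was most like Prmt3, an arginine methyltransferase (0.966), Ly6e (0.961) and Aldh1a7 (0.957).

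Around the 9 members, 116 other genes of the same pathways were listed. The table holds 112 of them, and 105 passed the filter on low counts. Of these 1 rose and 0 fell with gefitinib, 13 rose and 3 fell in combined against gefitinib, and 22 rose and 6 fell in combined against saline. The shares of all tested genes that rose or fell were 0.547% and 0.591%, 4.96% and 4.11%, and 9.37% and 8.32% in that order. The counts of each list below stand beside these same shares. The median log2 changes of the 105 genes were 0.04, 0.18 and 0.24.

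Of 6 tested ligands, 0 passed with gefitinib, 1 fell in combined against gefitinib and 1 rose in combined against saline. Over all tested genes, 1.14%, 9.08% and 17.7% changed in these comparisons. Tnf itself was at 0.446 ± 0.308 CPM with saline, 0.274 ± 0.260 with gefitinib and 0.826 ± 0.225 in the combined group (SD, n = 3 per group), and Fasl, the ligand of Fas, was at 0.0666 ± 0.0629, 0.300 ± 0.256 and 0.297 ± 0.0752 CPM, and neither passed in any comparison. Tnfsf10, which encodes TRAIL, the ligand of Tnfrsf10b, was at 3.43 ± 0.302, 4.14 ± 2.08 and 1.46 ± 0.435 CPM. It fell 2.83-fold in combined against gefitinib (edgeR adjusted p = 0.0383), a call lost under 6 of 8 other settings and without 8 of 9 libraries. Among 6 tested ligands, Tnfsf12 alone rose in combined against saline (2.38-fold, edgeR adjusted p = 0.024), and that call was lost without any 1 of the 6 libraries compared.

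Some other members of the TNF receptor family rose in the combined group. Of 10 tested, 0 passed with gefitinib, 4 rose and 0 fell against gefitinib, and 2 rose and 0 fell against saline. Over all tested genes, 1.14%, 9.08% and 17.7% changed in these comparisons. Tnfrsf12a, the receptor of the cytokine TWEAK, which lacks a death domain, was at 5.85 ± 0.467 CPM with saline, 7.45 ± 1.15 with gefitinib and 40.8 ± 7.55 in the combined group. It rose 5.47-fold against gefitinib and 6.96-fold against saline (edgeR adjusted p = 0.0002 and 2.75e-05). Tnfrsf1b, the second TNF receptor, also without a death domain, rose 2.82-fold against gefitinib (edgeR adjusted p = 0.022), a call lost without gefitinib 1, gefitinib 3, combined 2 or combined 3. Against saline its log2 change was 1.23 (edgeR adjusted p = 0.0282), a call lost under 2 of 9 other settings and without 5 of 9 libraries. Tnfrsf21, or death receptor 6, rose 1.60-fold and Tnfrsf26, a mouse receptor of the same family, rose 3.60-fold against gefitinib (edgeR adjusted p = 0.0405 and 0.0467), calls that were each lost without 7 of 9 libraries. The Tnfrsf21 call was also lost under 3 of 9 other settings, and the Tnfrsf26 call under 2 of 8.

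Of 26 tested adaptors and brakes of the receptor complexes, 0 changed with gefitinib. In the combined group 1 rose against gefitinib, and 3 rose and 1 fell against saline. The shares of all tested genes that changed were 1.14%, 9.08% and 17.7%. Tnfaip3, the ubiquitin-editing enzyme A20 that restrains NF-kB signalling and cell death, was at 2.70 ± 0.675, 4.30 ± 1.10 and 15.5 ± 2.87 CPM in saline, gefitinib and combined libraries. It rose 3.60-fold against gefitinib and 5.72-fold against saline (edgeR adjusted p = 0.00253 and 0.000307). Tnip1, a partner of A20, rose 1.86-fold and Ikbke, a kinase related to Tbk1, rose 1.76-fold in combined against saline (edgeR adjusted p = 0.0036 and 0.0143). Chuk, a kinase that activates NF-kB, fell 1.27-fold (edgeR adjusted p = 0.0292), a call lost under 4 of 9 other settings and without any 1 of the 6 libraries compared. The adaptor Fadd and Cflar, the brake on caspase-8, passed in no comparison. Cflar was at 80.0 CPM with saline and 61.7 CPM in the combined group (edgeR adjusted p = 0.0567).

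Among 14 other inputs and regulators of necroptosis, 1 rose with gefitinib, 1 rose in combined against gefitinib, and 6 rose and 1 fell in combined against saline. The shares of all tested genes that changed were 1.14%, 9.08% and 17.7% in that order. Zbp1, which engages Ripk3 through a RHIM, was at 3.63 ± 1.41, 11.7 ± 1.51 and 16.2 ± 4.21 CPM in saline, gefitinib and combined libraries. It rose 4.46-fold in combined against saline (edgeR adjusted p = 0.00153), while the 3.21-fold rise with gefitinib (adjusted p = 0.0377) was lost under 5 of 9 other settings and without 7 of 9 libraries. Ticam1, the RHIM adaptor of Toll-like receptors, rose 1.61-fold in combined against gefitinib (edgeR adjusted p = 0.0145). Irf9, an interferon pathway factor, rose 1.45-fold in combined against saline (edgeR adjusted p = 0.0204), a call lost without 4 of 9 libraries. Adar, an RNA editing enzyme that limits Zbp1 activation, rose 1.57-fold (edgeR adjusted p = 0.0193), lost without saline 1, saline 2 or combined 1.

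Bcl2 family genes, which set the threshold for mitochondrial apoptosis downstream of Bid, moved in both directions. Of 17 tested, 0 passed with gefitinib, 5 rose and 2 fell in combined against gefitinib, and 8 rose and 3 fell against saline. Beside these stand 1.14%, 9.08% and 17.7% of all tested genes changed. The anti-apoptotic Bcl2l1, or Bcl-xL, was at 34.1 ± 6.34, 24.2 ± 2.25 and 69.1 ± 13.3 CPM and rose 2.85-fold against gefitinib (edgeR adjusted p = 0.00113). The pore former Bax was at 28.9 ± 3.79, 33.9 ± 4.27 and 54.5 ± 7.50 CPM and rose 1.88-fold in combined against saline (edgeR adjusted p = 0.0028). The BH3-only gene Bik was at 11.8 ± 1.31, 7.50 ± 1.81 and 1.99 ± 0.214 CPM and fell 3.76-fold against gefitinib and 5.94-fold against saline (edgeR adjusted p = 0.000921 and 0.00011). Bcl2a1b and Bcl2a1d are anti-apoptotic genes of blood cells and near-identical copies of each other, so their counts are uncertain. Bcl2a1b rose 10.3-fold in combined against saline (edgeR adjusted p = 0.00245), and Bcl2a1d rose 7.96-fold in combined against gefitinib (edgeR adjusted p = 0.00941).

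Other caspases and inflammasome genes are counted beside shares of 1.14%, 9.08% and 17.7% of all tested genes changed in the 3 comparisons. Of 14 other caspases and apoptosome genes, 0 passed with gefitinib, 2 rose in combined against gefitinib, among them Apaf1, and 1 fell in combined against saline, Casp9. Apaf1, the scaffold of the apoptosome, rose 1.96-fold and Casp9, the caspase it activates, fell 1.61-fold (edgeR adjusted p = 0.0361 and 0.048), calls each lost without 7 of 9 libraries. The Apaf1 call was also lost under 2 of 8 other settings, and the Casp9 call under 5 of 9, library size alone among them. Of 18 tested inflammasome and gasdermin partners, 0 passed with gefitinib or in combined against gefitinib, and 2 rose in combined against saline, Gbp3 at 2.86-fold and Naip6 at 2.17-fold (edgeR adjusted p = 0.0234 and 0.049). The Gbp3 call was lost without 3 of 9 libraries (highest edgeR adjusted p = 0.0782). The Naip6 call was lost without 7 of 9 (highest 0.142) and under 3 of 8 other settings. Casp1, which cleaves Gsdmd, was at 2.98 CPM with saline and 3.95 CPM in the combined group (edgeR adjusted p = 0.335), and Nlrp3 at 0.992 and 1.57 CPM (adjusted p = 0.247).

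**Figure D5:**
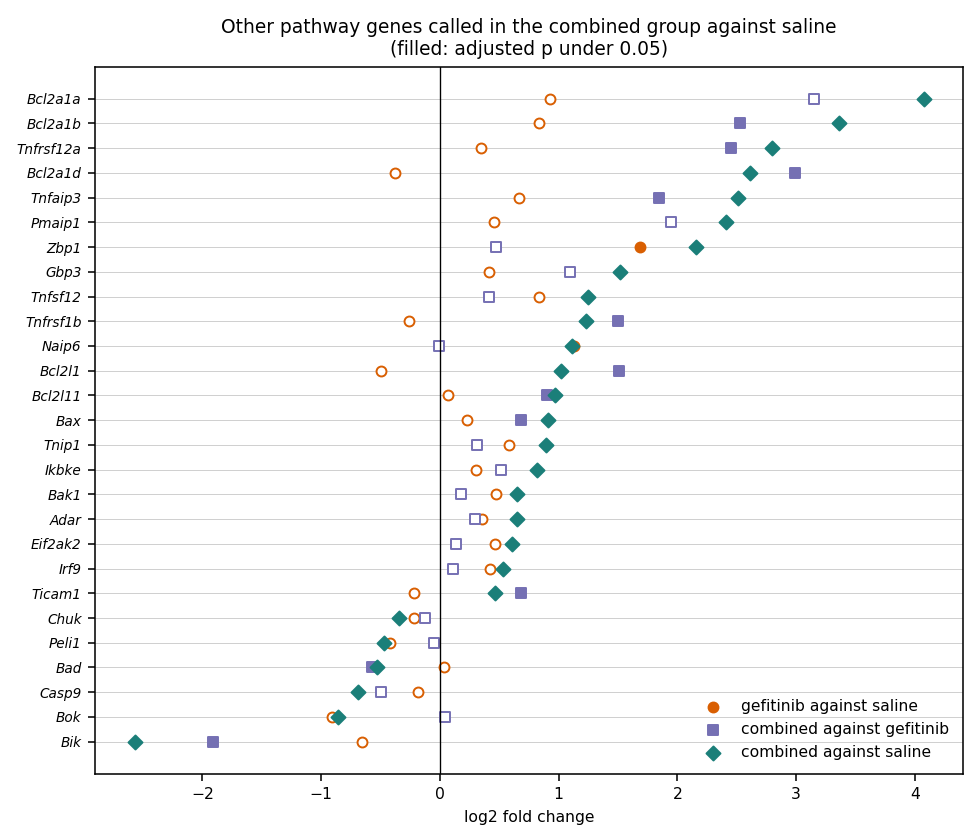
Log2 fold changes of 27 of the 28 pathway genes outside the 9 members that were called in combined against saline, shown for all 3 comparisons; filled symbols have an edgeR adjusted p under 0.05. The 21 genes drawn that rose are above the 6 that fell, and Bik is the lowest at -2.57.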

How the data were processed

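Counts and FPKM of liver RNA from 9 libraries were read from 1 deposited gene table. An RNeasy kit (Qiagen) and a SMARTer library kit were used, per the labels' protocols. The deposited counts are whole numbers per gene and library, left unnormalised by the authors, per the file headers and the values. FPKM came from the authors as deposited, named so in the column headers. The submitters' processing notes name GRCm38 and mm10. For the aligner, counter and strand setting, nothing is given in the sources used here. All 18 per-sample columns matched a library by name. Within groups, library pairs differed beyond sampling noise (chi-square per degree of freedom 74.8 to 155).

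The test was that of edgeR 4.0.16 under R 4.3.3 (filterByExpr, TMM, 1 quasi-likelihood fit of 3 group means over 9 libraries). This left 18113 tested and 9832 untested genes. Intervals are 95% intervals from that fit. Exonic overlap was taken from GENCODE M21, and promoter letters from RefSeq (GRCm38.p6). The fit was also tested on simulated data with few genes changed, so its power in these libraries may differ. Over the 3 comparisons it recovered 1.41% to 5.41% of 1.5-fold changes, 36.2% to 47.5% of 2-fold changes and 79.1% to 87.7% of 4-fold changes. A gene that did not pass is therefore not shown to be unchanged.

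The members and gene lists were chosen with earlier results of these data known. The text names all 9 members, Tnf, Fasl and Tnfsf10, and from each list up to 4 called genes with the smallest adjusted p per comparison. Casp1, Nlrp3, Fadd and Cflar are named outside that rule, after their values were seen. Protein motifs were not analysed here, and some called genes of the lists are counted but not reported here by name. Alternatives were a replicate block, no filter on low counts, a filter at 1 FPKM in the highest group, limma 3.58.1 on log2(FPKM + 1) or with 0.1 added, scaling by median ratios, library size alone, only the 6 libraries compared, DESeq2 1.42.0, and each library left out. Replicate numbers were not taken as pairs: deviations of same-numbered libraries correlated at -0.076 to 0.072. Figures were drawn with matplotlib 3.10.9.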

Additional observations from a re-analysis of the deposited data

How the results depend on the processing

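Of 7 calls on members, 2 passed under every alternative, Mlkl and Tnfrsf1a in combined against saline. Of 32 calls on other named genes, 15 did so. Members changed with gefitinib numbered 1, but 0 with the replicate block, with limma on log2(FPKM + 1) or log2(FPKM + 0.1), with no filter and with only the 6 libraries compared, 3 with DESeq2 (Mlkl, Casp8 and Tnfrsf1a), and 0 to 1 with a library left out. In combined against gefitinib the number was 1, but 2 with either FPKM scale, DESeq2 or only the 6 libraries compared, and 0 to 2 with a library left out. In combined against saline it was 5, but 6 with either FPKM scale or library size alone (Casp8 added), 4 with the replicate block, no filter, the filter at 1 FPKM or only the 6 libraries compared (Tnfrsf10b not called or not tested), and 2 to 4 with a library left out. It was 2 without saline 2 or combined 3 and 3 without combined 1. Genes changed with gefitinib numbered 206, and 82 with the replicate block, 103 and 115 with limma on log2(FPKM + 1) and log2(FPKM + 0.1), 82 with no filter, 866 with DESeq2 and 32 to 171 with a library left out. In combined against gefitinib they numbered 1644, and 1028 with the replicate block, 1092 with no filter, 2752 with DESeq2 and 751 to 1497 with a library left out. With limma on log2(FPKM + 1) and log2(FPKM + 0.1) they numbered 2257 and 2064. In combined against saline they numbered 3205, and 2496 with the replicate block, 2469 with no filter and 2065 to 2967 with a library left out. They were more numerous with DESeq2 (4194) and with limma on log2(FPKM + 1) and log2(FPKM + 0.1) (4163 and 4129). With library size alone, 1513 rose and 380 fell in combined against gefitinib (899 and 745 with TMM), and 2980 rose and 805 fell in combined against saline (1698 and 1507 with TMM). The cause of these shifts was not tested. Signs turned for values that passed under no setting. In combined against gefitinib, with log2(FPKM + 1), log2(FPKM + 0.1) and library size alone in that order, Casp8 was at 0.034, 0.037 and 0.031, Fas at 0.065, 0.072 and 0.061 and Fasl at 0.020, 0.18 and 0.16 on the log2 scale, with Bid at 0.046 with library size alone and Fasl at 0.088 with the replicate block. Fas in combined against saline was at 0.14, 0.15 and 0.13. With a library left out, Fas was between -0.085 and 0.16 with gefitinib and between -0.19 and 0.057 in combined against saline, Tnfsf10 between -0.20 and 0.55 with gefitinib, and in combined against gefitinib Ripk1 was between -0.044 and 0.060, Bid between -0.56 and 0.047, Gsdmd between -0.00027 and 0.16 and Fasl between -0.47 and 0.87. Same-numbered libraries did not deviate together, so the replicate block tests a shared number only. Tnfrsf10b, Tnf and Fasl rest on few counts, which limits their precision.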
